A study of Danio rerio with 8 samples.

Results

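Crystallins are the abundant soluble proteins of the vertebrate lens. The alpha crystallins belong to the small heat shock proteins and act as chaperones that hold unfolded proteins in solution, while the beta and gamma crystallins share a fold of Greek key motifs and are best known as densely packed refractive proteins of lens fibre cells. Other genes carry the name because an enzyme was recruited as a lens protein in some mammals, as was zeta crystallin, a quinone reductase, in guinea pig and lambda crystallin, a dehydrogenase of sugar acids, in rabbit. Transcripts of several crystallins are also known from the retina.

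The crystallin genes examined here are the entries whose symbol in the deposited gene table begins with a crystallin name of the alpha A, alpha B, alpha M, beta, gamma, lambda or zeta kind, with cryptochromes left out. There were 5 such genes among 13325 named entries, and the count files list 33737 gene IDs in all. They comprise 1 alpha crystallin (*cryabb*), 1 beta crystallin (*cryba4*), 0 gamma crystallins and 3 enzyme-like genes (*cryl1*, *cryz* and *cryzl1*). The rule uses names only, and no measured difference enters it beyond the low-value filter of that table. It was chosen with earlier results of these data known.

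RNA-seq had been carried out on 4 libraries of GFP+ cells (rods) and 4 libraries of GFP- cells (non-rod retinal cells) from 4 adult zebrafish of the *xops:eGFP* line. Expression of eGFP in this line is under the rod opsin promoter of *Xenopus*, and the cells of both sorted populations carry the transgene. Fish were dark-adapted, the lens and cornea were removed and the retina was peeled from the pigment epithelium before dissociation with trypsin and papain, so each library is a sorted suspension and not intact tissue. Both retinas of a single fish gave 1 GFP+ and 1 GFP- library, which makes the fish the replicate. The titles of fish 3 and fish 4 (2_2 and 5_2) end in _2 and those of fish 1 and fish 2 (1 and 2) do not, and what the ending stands for is not given in the labels or methods used here. The exact age and the sex of each fish are not in the labels.

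GFP+ libraries held 1722055 to 2206479 counts on genes, against 1865121 to 2514874 in GFP- libraries. The 10 rod markers were all higher in GFP+ libraries (edgeR quasi-likelihood test), with a summed level of 37570 to 67736 CPM (counts per 1000000 counts, scaled by TMM library factors) against 2960 to 13890 CPM in GFP- libraries, so the GFP- libraries still held rod transcripts. Cone markers summed to 3337 to 5655 CPM in GFP+ libraries, against 19286 to 36958 CPM in GFP- libraries, so the GFP+ libraries held non-rod transcripts too. The share of counts on mitochondrial genes was 28.9% to 66.1% in libraries of fish titled with _2, against 12.4% to 26.9% in those of fish titled without, and was highest in GFP- of fish 3. The 3-count limit that a count of 0 allows lay between 0.945 and 3.13 scaled CPM, the highest again in GFP- of fish 3. Such limits, and the counting intervals given for single libraries, cover counting error only, since the reads come from amplified cDNA without molecular identifiers. In sorted bulk libraries, fewer cells of a type and less RNA per cell cannot be told apart.

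All 5 crystallin genes were counted at low numbers in both populations, and none passed the test of rods against other retinal cells. Their summed counts over the 8 libraries were 75 for *cryabb*, 99 for *cryba4*, 124 for *cryl1*, 156 for *cryz* and 238 for *cryzl1*, below the median of 265 over all genes tested. Of the 40 single-library counts, 29 were under 25, 8 were at 3 or fewer and 2 were 0. Together the 5 genes took 62, 125, 48 and 110 counts in GFP+ libraries of fish 1 to 4, against 131, 121, 35 and 60 in GFP- libraries, or 0.00279% to 0.00701% of counts on genes in GFP+ libraries and 0.00188% to 0.00609% in GFP- libraries.

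In the test of GFP+ against GFP- cells with the fish as a block, 0 of the 5 crystallin genes were called at an FDR of 0.05, beside 15.2% of the 12564 genes tested (5.60% higher and 9.57% lower in GFP+). At an unadjusted p under 0.05 the edgeR quasi-likelihood test found 0 of the 5, beside 26.5% of all genes tested. The edgeR likelihood ratio test and DESeq2 each found 1 (*cryz*), beside 29.9% of all genes in the likelihood ratio test and 27.8% in DESeq2. With fish 3 left out, the quasi-likelihood test found 2 (*cryba4* and *cryabb*), beside 3264 of the 12504 genes tested. It found 0 with fish 1, fish 2 or fish 4 left out. With all fish, the FDR of the 5 genes in the quasi-likelihood test lay between 0.190 and 0.923. For every one of the 5 the GFP+ and GFP- ranges overlapped, and the share of all genes with such overlap was not counted.

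**Figure D1:**
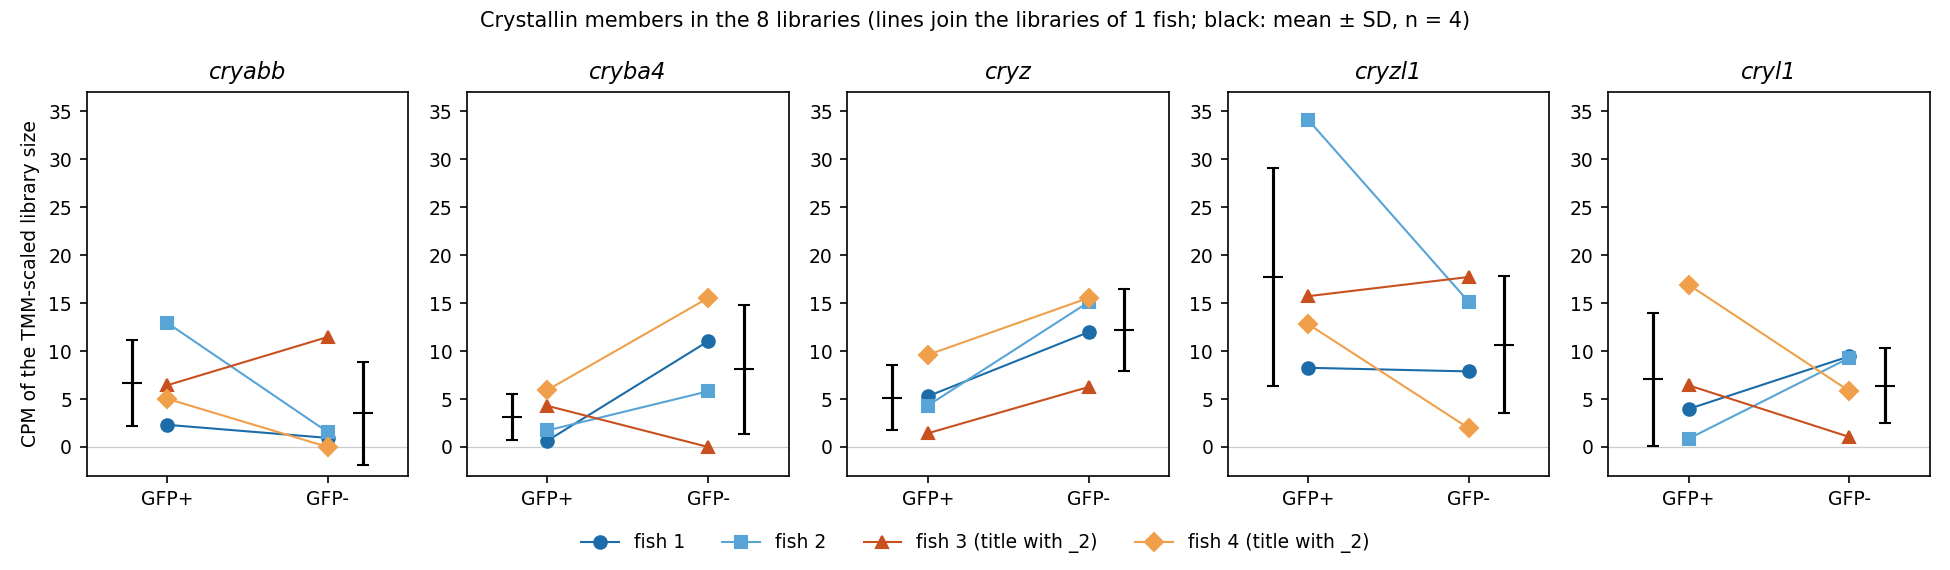
Level of each crystallin gene in every library, in scaled CPM on the vertical axis, with GFP+ libraries left of GFP- libraries, 1 point per library, lines joining the libraries of a fish and black bars for the mean ± SD (n = 4). For *cryz* each of the 4 lines runs higher on the GFP- side, whereas for each of the other 4 genes the lines run in both directions.

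*cryabb* encodes an alpha B crystallin, a small heat shock protein, and is 1 of a pair of alpha B genes in zebrafish. In mammals alpha B crystallin is widely expressed outside the lens. It lies on Zv9 chromosome 5 from 58990767 to 59000186 (gene ENSDARG00000052447, forward strand), where its span overlaps *C11orf1* on the other strand. This overlap concerns whole gene spans, and overlap of exons was not examined. Whether the counting used strand is not stated, so reads from a stretch shared by overlapping genes may not be told apart. Its counts were 7, 30, 9 and 11 in GFP+ libraries of fish 1 to 4, against 3, 4, 11 and 0 in GFP- libraries. In scaled CPM these were 2.31, 12.9, 6.43 and 5.03 in GFP+ libraries and 0.945, 1.55, 11.5 and 0 in GFP- libraries. GFP+ was the higher library in fish 1, 2 and 4 and the lower one in fish 3, where the ratio of GFP+ to GFP- was 0.561. Fish 1 had a ratio of 2.45 and fish 2 one of 8.36. In fish 4 the GFP- library had 0 counts, and the GFP+ level was 2.59-fold the 3-count limit of that GFP- library.

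The means of *cryabb* were 6.68 ± 4.52 CPM in GFP+ libraries and 3.49 ± 5.36 CPM in GFP- libraries (SD, n = 4 each). The fitted log2 fold change was 1.72 (SE 1.05, 95% interval -0.47 to 3.90), with an FDR of 0.327 in the edgeR quasi-likelihood test. With 1 fish removed it was 2.78 (FDR 0.147) without fish 3, 1.88 (FDR 0.437) without fish 1, 1.14 (FDR 0.619) without fish 4 and 1.13 (FDR 0.702) without fish 2, in the same test. The GFP- library of fish 3 is also the one with 10 counts of *BFSP2*, a lens fibre filament gene. That gene was at 0 in each GFP+ library, and its other GFP- libraries had 1 (fish 1), 0 (fish 2) and 0 (fish 4). Of 14 lens list IDs, with *si:ch211-281l24.3* left out, 3 had a count in GFP- of fish 3 (*BFSP2*, *BFSP1* with 3 and *foxe3* with 1) and the others were at 0. In the same library *cryba4* was at 0. The further beta and gamma crystallin IDs had their lowest counts of the 8 libraries there, 3 and 1, and its scaled size is the smallest. In scaled CPM the beta IDs stood at 3.13 there, within the range of 2.84 to 3.88 over GFP- libraries. The gamma IDs stood at 1.04 CPM, the lowest of the 8 libraries. The further alpha crystallin IDs went the other way, with 2 counts there, or 2.09 CPM, the highest level of the 8 libraries. The part of lens material in the *cryabb* counts was not tested.

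*cryba4* encodes a beta A4 crystallin, a structural protein of the lens, and lies on chromosome 10 from 45544674 to 45552554 (ENSDARG00000024548, forward strand) with no overlapping entry. Its counts were 2, 4, 6 and 13 in GFP+ libraries of fish 1 to 4, against 35, 15, 0 and 24 in GFP- libraries. The levels were 0.660, 1.73, 4.29 and 5.94 CPM in GFP+ libraries and 11.03, 5.81, 0 and 15.5 CPM in GFP- libraries. GFP+ was lower than GFP- in fish 1, 2 and 4, with ratios of 0.0599, 0.297 and 0.383. In fish 3 the GFP- library had 0 counts, and the GFP+ level was 1.37-fold the 3-count limit of that GFP- library. The counting interval of the GFP+ level, 1.57 to 9.33 CPM, reaches below that limit.

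For fish 1 the counting intervals of *cryba4* did not overlap, at 0.0800 to 2.39 CPM in GFP+ and 7.68 to 15.3 CPM in GFP- (95% exact Poisson), and in fish 2, 3 and 4 they overlapped. This was not particular to *cryba4*. Intervals of *cryabb* and *cryzl1* were apart in fish 2 and 4, with GFP+ higher, and those of *cryz* in fish 2, with GFP+ lower. Those of *cryl1* were apart in opposite directions, GFP+ lower in fish 2 and higher in fish 4. Over the 4 fish the means were 3.15 ± 2.403 CPM in GFP+ and 8.09 ± 6.70 CPM in GFP- (SD, n = 4 each). The log2 fold change of -1.36 (SE 1.02, 95% interval -3.48 to 0.76) had an FDR of 0.442 in the edgeR quasi-likelihood test. Without fish 3 it was -2.20 with an FDR of 0.0965, and without fish 1 it was -0.52.

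The 3 enzyme-like genes held most of the counts. *cryz* encodes zeta crystallin, an NADPH-dependent quinone reductase, and lies on chromosome 2 from 10894541 to 10910704 (ENSDARG00000016074, reverse strand), overlapping *tyw3* on the other strand. It had 16, 10, 2 and 21 counts in GFP+ libraries of fish 1 to 4, against 38, 39, 6 and 24 in GFP- libraries. In CPM these were 5.28, 4.32, 1.43 and 9.60 in GFP+ libraries and 12.0, 15.1, 6.26 and 15.5 in GFP- libraries. GFP+ was lower in 4 of 4 fish, with GFP+ to GFP- ratios of 0.441, 0.286, 0.228 and 0.618, although the highest GFP+ library, fish 4, lay above the lowest GFP- library, fish 3.

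The means of *cryz* were 5.16 ± 3.38 CPM in GFP+ and 12.2 ± 4.28 CPM in GFP- (SD, n = 4 each). Its log2 fold change was -1.36 (SE 0.66, 95% interval -2.71 to 0.00; FDR 0.190, edgeR quasi-likelihood test). With any 1 of the 4 fish removed it was -1.60 to -1.18, and an FDR of 0.05 was not reached in any of these fits.

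*cryzl1* encodes a quinone oxidoreductase-like relative of zeta crystallin. It lies on chromosome 1 from 47586608 to 47602321 (ENSDARG00000026902, forward strand) and overlaps *itsn1* on the other strand. Its counts were 25, 79, 22 and 28 in GFP+ libraries of fish 1 to 4, against 25, 39, 17 and 3 in GFP- libraries. The levels were 8.25, 34.1, 15.7 and 12.8 CPM in GFP+ and 7.88, 15.1, 17.7 and 1.94 CPM in GFP-. The GFP+ to GFP- ratio was near 1 in fish 1 (1.05) and fish 3 (0.887), and was 2.26 in fish 2 and 6.59 in fish 4. The means were 17.7 ± 11.3 CPM in GFP+ and 10.7 ± 7.15 CPM in GFP- (SD, n = 4 each), with a log2 fold change of 0.82 (SE 0.57, 95% interval -0.36 to 2.0, FDR 0.397 in the edgeR quasi-likelihood test). With 1 fish removed it was 0.40 without fish 4, 0.69 without fish 2, 1.09 without fish 1 and 1.18 without fish 3.

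*cryl1* encodes lambda crystallin, an L-gulonate dehydrogenase in mammals, and lies on chromosome 9 from 22416965 to 22433000 (ENSDARG00000003675, forward strand) with no overlapping entry. It had 12, 2, 9 and 37 counts in GFP+ libraries of fish 1 to 4, against 30, 24, 1 and 9 in GFP- libraries. In CPM these were 3.96, 0.863, 6.43 and 16.9 in GFP+ and 9.45, 9.29, 1.04 and 5.83 in GFP-. The direction differed between fish: GFP+ to GFP- ratios were 0.419 and 0.0929 in fish 1 and 2 and 6.17 and 2.90 in fish 3 and 4. Over the 4 fish the means were 7.04 ± 6.97 CPM in GFP+ and 6.40 ± 3.95 CPM in GFP- (SD, n = 4 each), and the log2 fold change was -0.21 (SE 0.93, 95% interval -2.13 to 1.71, FDR 0.923 in the edgeR quasi-likelihood test). Its sign depended on the fish included, at 0.70 without fish 2 and -0.93 without fish 4.

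**Figure D2:**
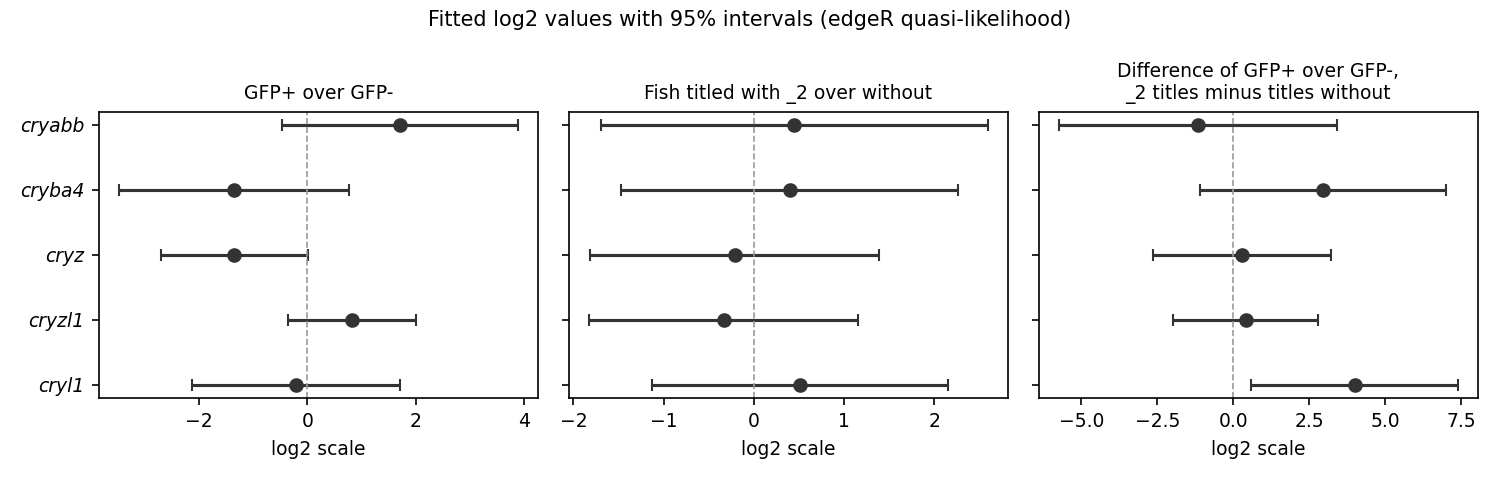
Fitted log2 fold changes of the 5 crystallin genes with 95% intervals, for GFP+ over GFP- cells, for fish titled with _2 over fish titled without, and for the difference in the GFP+ to GFP- change between the title sets. The intervals of all 5 genes include 0 in the first 2 comparisons, and in the last the interval of *cryl1* runs from 0.60 to 7.40.

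By class, the alpha and beta sums are those of their single genes. The 3 enzyme-like genes summed to 17.5, 39.3, 23.6 and 39.3 CPM in GFP+ libraries of fish 1 to 4, against 29.3, 39.5, 25.02 and 23.3 CPM in GFP- libraries. The means were 29.9 ± 11.1 CPM in GFP+ and 29.3 ± 7.26 CPM in GFP- (SD, n = 4 each).

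The suffix of the titles separates fish 3 and 4 from fish 1 and 2, and the libraries of each fish were summed for this comparison. None of the 5 crystallin genes was called at an FDR of 0.05 (0 of 5), beside 0.417% of the 13424 genes tested, and 0 of 5 had an unadjusted p under 0.05 in the edgeR quasi-likelihood test, beside 15.0% of all genes. The log2 fold changes, titles with _2 over titles without, were 0.51 for *cryl1* (SE 0.73), 0.45 for *cryabb* (SE 0.95), 0.40 for *cryba4* (SE 0.83), -0.21 for *cryz* (SE 0.71) and -0.34 for *cryzl1* (SE 0.66). Each change is smaller than its standard error, and the ranges of the title sets overlapped for all 5 genes. How common such overlap was over all genes was not counted. With 2 fish in each set, every sign changed when 1 fish or another was left out. The mitochondrial share, given above, divides the libraries in the same way, and its part in these values was not tested.

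Within GFP+ libraries, the means of fish titled with _2 were 5.73 CPM for *cryabb*, 5.12 for *cryba4*, 11.7 for *cryl1*, 5.52 for *cryz* and 14.3 for *cryzl1*, against 7.63, 1.19, 2.41, 4.80 and 21.2 CPM in the same order in fish titled without. Within GFP- libraries they were 5.73, 7.77, 3.43, 10.9 and 9.83 CPM in fish titled with _2, against 1.25, 8.42, 9.37, 13.5 and 11.5 CPM in fish titled without. *cryl1* is the gene whose title sets were ordered in opposite ways in both populations without overlap: its GFP+ libraries were higher in fish titled with _2, and its GFP- libraries were lower. This pattern was seen after the values of the 5 genes were known, and rests on 2 libraries per set and population. Counts of 1 and 2 are among them, and the share of all genes with such a pattern was not counted.

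In the test of that interaction, 0 of the 5 genes were called at an FDR of 0.05, beside 0.167% of the 12564 genes tested. The interaction term of *cryl1* was 4.00 (SE 1.68, 95% interval 0.60 to 7.40, FDR 0.676, edgeR quasi-likelihood test), which made it the 1 gene of the 5 with an unadjusted p under 0.05, beside 6.08% of all genes tested. The terms were 2.96 for *cryba4* (SE 1.995, FDR 0.932), 0.40 for *cryzl1* (SE 1.18), 0.27 for *cryz* (SE 1.44) and -1.17 for *cryabb* (SE 2.25).

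Lens crystallins outside the deposited gene table were sparse in the counts. A table of gene names calls 49 further IDs crystallins, of which 33 had 0 counts in all 8 libraries and 16 had at least 1. These 49 IDs took 164 counts in total, 106 in GFP+ and 58 in GFP- libraries. Alpha A crystallin (*CRYAA*) had 0 counts in each library, and the other alpha ID, *CRYAB*, had 3 in GFP+ and 3 in GFP-. Of the 35 gamma IDs, 27 were at 0, and the class held 49 counts in GFP+ and 29 in GFP- libraries. Of the 12 beta IDs, 5 were at 0. The class held 11, 12, 18 and 13 counts in GFP+ libraries of fish 1 to 4, against 9, 8, 3 and 6 in GFP- libraries. The counts do not overlap, but in scaled CPM the ranges do, at 3.63 to 12.9 in GFP+ and 2.84 to 3.88 in GFP-. Within each fish the scaled GFP+ sum was the higher one, at 3.63, 5.18, 12.9 and 5.94 CPM in fish 1 to 4. The GFP- sums were 2.84, 3.10, 3.13 and 3.88 CPM. The class sum was not tested, and the share of all genes with such an order was not counted. Many fish gamma crystallins, the methionine-rich gammaM group, are near-identical copies, so a read could have been split between them or discarded, and these totals are uncertain.

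There were 5 IDs outside the table with a total of 10 or more counts. *crybb1l3*, a beta B1-like crystallin, had 7, 2, 13 and 6 counts in GFP+ libraries of fish 1 to 4, against 3, 0, 2 and 1 in GFP- libraries. *CRYGN*, a gamma N crystallin, had 1, 8, 8 and 11 in GFP+, against 2, 3, 0 and 0 in GFP-. *CRYBA1* had 1, 4, 5 and 4 in GFP+, against 1, 0, 0 and 0 in GFP-. GFP+ had more counts than GFP- in 4 of 4 fish for *crybb1l3*, in 3 of 4 for *CRYGN* and in 3 of 4 for *CRYBA1*. These tallies use unscaled counts. Each of these IDs reached the total of 10 only through its GFP+ counts, so the tallies cannot test a direction. IDs under that total went both ways. Among them, *crygm2d12* had 5 counts in GFP+ and 2 in GFP- libraries, and *crygm5* had 0 in GFP+ and 9 in GFP-.

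*crygm2d20*, a gammaM crystallin, had 4, 4, 0 and 2 counts in GFP+ libraries and 0 in each GFP- library. *cryba1l1* had 0, 6, 0 and 2 in GFP+, against 3, 2, 0 and 1 in GFP-. In a fit without the filter on low counts, none of the 16 IDs with a count was called in either comparison, and 0 of 16 had an unadjusted p under 0.05. Of the 23400 genes in that fit, 8.61% were called and 16.5% had such a p between populations, and 3.13% and 11.4% between title sets. The FDR was 0.546 for *CRYGN*, 0.560 for *crybb1l3* and 0.515 for *crygm2d20* (edgeR quasi-likelihood test, GFP+ against GFP-).

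**Figure D3:**
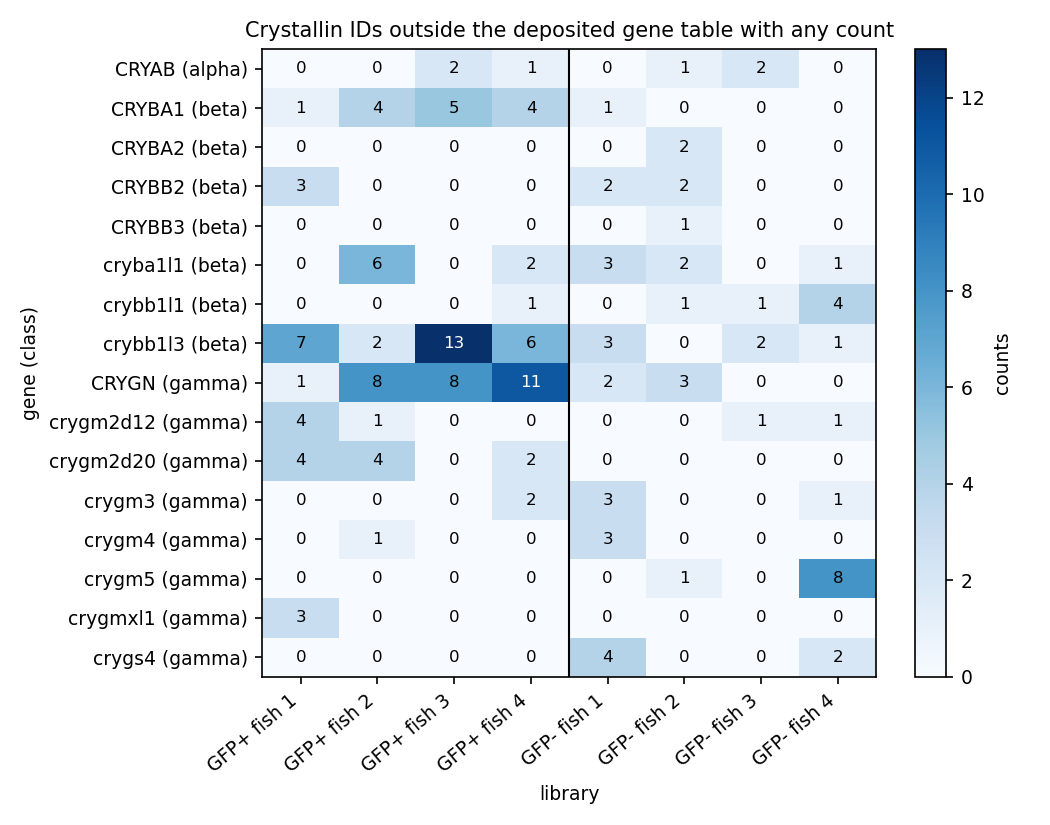
Counts of the 16 crystallin IDs outside the deposited gene table that had any count, 1 row per ID with its class and 1 column per library, GFP+ libraries left of GFP- libraries; darker cells hold more counts. Most cells are at 0, the highest is *crybb1l3* with 13 counts in GFP+ of fish 3, and *crygm5*, a gammaM crystallin, has 8 of its 9 counts in GFP- of fish 4.

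Lens markers other than crystallins were sparse as well. Of 23 listed symbols 15 were matched to an ID, and 5 of these were at 0 in all libraries, among them *lim2.1*, a lens fibre membrane gene, and *GJA3*, a lens connexin. Most of the list's summed level, 21.5 to 99.3 CPM in GFP+ and 35.6 to 101 CPM in GFP-, came from a single entry, *si:ch211-281l24.3*, whose specificity for lens is uncertain. The other 14 IDs summed to 6 to 34 counts in GFP+ and 13 to 22 counts in GFP- libraries. The 2 list members tested, *si:ch211-281l24.3* and *lim2.2*, were not called, with FDR of 0.990 and 0.661 (edgeR quasi-likelihood test, GFP+ against GFP-). Surface epithelium markers summed to 0.863 to 9.29 CPM in GFP+ and 1.94 to 27.1 CPM in GFP- libraries. Of the 2 tested, the keratin gene *krt91* was lower in GFP+ (FDR 0.0316, edgeR quasi-likelihood test), with 0 counts in each GFP+ library and 43, 15, 0 and 0 in GFP- libraries of fish 1 to 4. The other, *pkp3a*, went the other way and was not called (log2 fold change 1.26, FDR 0.662, same test). It had 0, 0, 12 and 12 counts in GFP+ libraries of fish 1 to 4, against 0, 1, 2 and 2 in GFP- libraries. Whether lens or surface cells gave part of the crystallin counts was not tested.

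A list of small heat shock proteins, relatives of the alpha crystallins, also held heat shock factors. Of its 14 symbols 11 were matched and 5 were tested, with 0 higher, 1 lower and a median log2 fold change of 0.34. Over all genes tested, 5.60% were higher, 9.57% were lower and the median was -0.02. The list median is the value of the heat shock factor *hsf1*, so it does not describe the small heat shock proteins. *hsf2* was at 0.50, *HSPB11* at 0.71 and *hspb1* at -0.69. Symbols were matched without regard to letter case, and whether the entry *HSPB11* is the listed zebrafish small heat shock gene was not checked. The gene that fell was *hspb6*, a small heat shock protein, at 86.5, 19.9, 34.3 and 16.9 CPM in GFP+ libraries of fish 1 to 4, against 110, 91.8, 105 and 104 CPM in GFP- libraries. GFP+ was lower in every fish and the groups did not overlap. Its log2 fold change was -1.67 (SE 0.35, FDR 0.00179, edgeR quasi-likelihood test). *HSPB2*, which lies beside *cryabb* in the RefSeq annotation of assembly GRCz12tu, had 4, 18, 0 and 4 counts in GFP+ and 0 in every GFP- library. Over the group, the GFP+ level was 8.02-fold the 3-count limit of the summed GFP- libraries (2.91 CPM against 0.363 CPM). It was too low to pass the filter for testing, and 18 of its 26 counts came from the library with most *cryabb* counts, GFP+ of fish 2. Without fish 2 the GFP+ level was 2.29-fold that limit (1.21 CPM against 0.528 CPM).

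Of 26 symbols of transcription factors known to regulate crystallin genes, 18 were matched and 12 were tested, of which 1 was higher and 2 were lower in GFP+ (5.60% and 9.57% of all genes tested), with a median log2 fold change of -0.55. *mafba*, of the large Maf family, rose to 35.3 ± 16.5 CPM in GFP+ libraries, against 11.2 ± 4.72 CPM in GFP- libraries (SD, n = 4 each; log2 fold change 1.62, SE 0.42, FDR 0.00963, edgeR). *six3b*, an eye field and lens factor, fell to 41.1 ± 12.7 CPM in GFP+, against 109 ± 17.5 CPM in GFP- (SD, n = 4 each; -1.44, SE 0.29, FDR 0.00108, edgeR). *pax6a*, which is also known from amacrine and ganglion cells, fell to 27.1 ± 10.7 CPM in GFP+, against 60.2 ± 15.2 CPM in GFP- (SD, n = 4 each; -1.19, SE 0.38, FDR 0.0331, edgeR). *pitx3* and *HSF4*, a pair of lens factors, had 0 counts in all libraries. Of 14 stress chaperones tested, 1 was higher (*serpinh1b*) and 4 were lower (*hspa4a*, *hspa5*, *hsp70.3* and *hsp90ab1*), with a median of -0.79, beside the same shares of all genes. Many markers of non-rod cells were also lower in GFP+. Of those tested, 2 of 7 Müller glia, 3 of 5 ganglion cell and 7 of 7 microglia markers were called lower. So were 11 of 11 cone and 5 of 5 erythrocyte markers, but 0 of 3 markers of the retinal pigment epithelium. The part of non-rod cells in the lower genes of these lists was not tested. Between the title sets, 0 of the 36 genes of these 4 lists that were tested were called, and 5 (13.9%) had an unadjusted p under 0.05, beside 0.417% called and 15.0% at that p over all genes tested (edgeR quasi-likelihood test).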

How the data were processed

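RNA-seq libraries came from GFP+ and GFP- cells of 4 fish, 8 in all, and 0 sample columns were unmapped. Sickle (quality trimming), FLASH (joining of read pairs), BWA (alignment to Zv9), SAMtools and HTSeq (counting per Ensembl gene) were used by the authors; versions and strand setting are not given in the sources used here. The deposited counts are whole numbers without normalization. HTSeq's own counters, 34.4% to 55.3% of each library's total, entered neither library sizes nor tests. The authors also deposited a table with a normalized signal per library, from which whole reads were recovered for 100% of values (tolerance 0.01), 100% of them equal to the deposited counts. Its columns of the authors' comparison (log2 fold change and log2 CPM, a likelihood ratio score, p-values and FDR) were not used.

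Counts were fitted with edgeR 4.0.16 under R 4.3.3 (filterByExpr, TMM factors, trended dispersion, quasi-likelihood F test, Benjamini-Hochberg adjustment over all genes tested, FDR 0.05) with the fish as a block. The count test on recovered reads called 1835 genes. Title sets were compared on counts summed per fish, and the interaction in the 8 libraries. DESeq2 1.42.0, limma 3.58.1, Python 3.11.15, pandas 2.3.3, numpy 2.4.6, scipy 1.17.1 and matplotlib 3.10.9 were also used. CPM are scaled by TMM factors. Counting intervals are 95% exact Poisson and the floor is 3 counts. The main quasi-likelihood fits of the population, title and interaction comparisons were also tested on simulated data, and the alternative fits were not. Changed genes were drawn from above the median level there, so genes as low as the crystallins were not covered.

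The study's methods pair the libraries of a fish. Their deviations from the population means correlated at 0.324, 0.294, 0.335 and 0.215 in fish 1 to 4. Every member is named, and further crystallin IDs are named at a total of 10 counts or more. *CRYAA*, *CRYAB*, *crygm5*, *crygm2d12* and genes of the other lists named in the text were picked after their values were seen. The members and lists were chosen with earlier results of these data known. Alternatives covered the block, test, tool, scaling, filter, mitochondrial genes, threshold and each fish left out. No sequences were printed, since none of the tables used here holds them for these genes.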

Additional observations from a re-analysis of the deposited data

Results flagged for a closer look

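Within the 4 GFP- libraries, *cryabb* had 1 library far above the others. GFP- of fish 3 stood at 11.5 CPM (11 counts), against 0.945, 1.55 and 0 CPM in fish 1, 2 and 4, and the gap to its neighbour took 0.865 of the range. This depends on the scaling of that library: without scaling factors it stood at 5.90 CPM, against 1.19, 2.01 and 0 CPM, and the gap took 0.659 of the range, which is below the limit. The sum of all alpha crystallin IDs, which *cryabb* dominates, gave 0.857 for the same library (0.639 unscaled), so these are not separate observations. For normally distributed values, chance alone puts about 1 in 20 groups of 4 past the limit used, Dixon's 95% critical value. The rate for counts this low was not tested. Every member was screened in both populations, and class sums were screened too. This library has the highest mitochondrial share of the 8, 66.1%, and the smallest scaled size, so 1 count is worth most there.

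The GFP+ to GFP- change of *cryl1* differed between the title sets by 4.00 on the log2 scale. The ratio was above 1 in both fish titled with _2 and below 1 in both fish titled without. The interaction had an FDR of 0.676 over all genes tested (edgeR quasi-likelihood test), and the counts behind it include values of 1 and 2.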

How the results depend on the processing

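No crystallin gene that could be tested was called under any alternative tried, in any of the 3 comparisons. Between title sets, *cryba4* and *cryabb* did not pass the filter in GFP+ libraries only, nor did *cryabb* in GFP- libraries only. DESeq2 gave *cryba4* and *cryabb* no FDR between title sets. Leaving out each fish in turn gave 1125 to 1780 genes called between GFP+ and GFP- cells (1905 with all fish; 1125 without fish 1, 1200 without fish 2 and 1259 without fish 4) and 146 to 1539 between title sets (56 with all fish; 230, 146, 511 and 1539 without fish 1, 2, 3 and 4). The lone fish of a set is then assumed to vary like the others. Without the replicate block, 665 genes were called between populations and 0 in the interaction (21 with it); *cryabb* did not pass the filter, *cryl1* was 0.049 and the interaction of *cryzl1* was -0.28. At an FDR of 0.01 the counts were 1107, 1 (titles) and 5 (interaction). Between title sets the count was 1 in GFP+ libraries only, 532 with libraries not summed, 577 with DESeq2, 273 without scaling factors, 732 without the filter and 34 without mitochondrial genes. Without scaling factors, 1125 genes were higher and 735 lower in GFP+, against 703 and 1202 with them, and the median of all genes moved to 0.32 between populations and to -0.91 between title sets. *cryl1* was then 0.15 between populations, and between title sets *cryl1* was -0.30, *cryba4* -0.40 and *cryabb* -0.49. In GFP- libraries only, the title change was -1.32 for *cryl1* and -0.031 for *cryba4*, and in GFP+ libraries only it was 0.20 for *cryz*. With each fish left out, the title change ranged over -0.43 to 1.05 for *cryl1*, -1.37 to 0.40 for *cryz*, -0.87 to 1.03 for *cryba4*, -0.91 to 0.67 for *cryzl1* and -0.49 to 1.85 for *cryabb*, and the population change over -0.93 to 0.70 for *cryl1*, 1.13 to 2.78 for *cryabb* and -2.20 to -0.52 for *cryba4*. The enzyme-like sum over library totals without mitochondrial genes was 45.0 CPM in GFP+ and 49.1 CPM in GFP-. The cause of these shifts was not tested. The intervals of the crystallin genes hold counting error and the spread between fish together, and the share of each was not separated.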

Other observations

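*aim1a*, called *crybg1a* in the table of gene names, carries beta and gamma crystallin domains but is not a lens crystallin, and was picked after its values were seen. Its counts were 21, 13, 21 and 10 in GFP+ libraries of fish 1 to 4, against 67, 39, 23 and 27 in GFP- libraries. The log2 fold change was -1.40 (SE 0.53, FDR 0.0828, edgeR quasi-likelihood test), so it missed the threshold of 0.05.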
